A study of Mus musculus with 8 samples.

Results

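The noncoding IDs described here were present in some libraries and without a single read in others. An ID was taken when it had no read in 2 or more of the 8 libraries and 100 or more raw counts in 2 or more of the remaining ones, and 40 of the 46475 IDs of the noncoding table met that condition. The 40 were chosen by the same raw counts that are described below, so their zeros and their high values are a description. How their zeros fall over libraries and substrates was not tested. The fits of stiff over soft given below cover the whole noncoding table and use these same counts of the 40. The libraries came from primary cardiomyocytes of mouse embryos at E18.5 that carried a fluorescent histone fusion (B6.Cg-Tg(HIST1H2BB/EGFP)1Pa/J), and the cells had been kept for 4 days on PDMS, a silicone that can be cast at different elasticities. There were 4 libraries from the stiff substrate of about 150 kPa and 4 from the soft one of about 10 kPa, and the cells of both groups carried the transgene. The library codes in the titles end in the digits 1 to 4 on each substrate, and the libraries are called stiff 1 to stiff 4 and soft 1 to soft 4 after that digit. The part of the code before that digit is the same within a substrate and differs between the substrates. What it stands for is not stated in the labels. A difference between stiff and soft cannot be told apart from a difference between these code series. Whether libraries of one group stem from different litters or dishes is not stated in the labels, and every p-value therefore refers to the scatter among these 8 libraries, part of which may be technical. Hearts were digested to single cells, so that cells other than cardiomyocytes could be present.

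Long noncoding RNAs are transcripts that are not translated into protein. Some act as scaffolds for chromatin or splicing factors, some regulate their neighbours in the genome by being transcribed, and for most no function is known. They are on average less abundant than messenger RNAs and more restricted to single tissues, the heart included. The IDs are of the form used by the NONCODE database, a catalogue of noncoding transcripts. The tables used here pair none of the 40 with a symbol, a position or a sequence, so that no role is given for any of them.

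The noncoding totals ran from 2135712 to 2463946 counts in the stiff libraries and from 1992836 to 2505251 in the soft ones. Stiff 3 stood apart: it had 4886 noncoding IDs with at least 1 count, against 6916 to 8413 in the other stiff libraries and 6586 to 7830 in the soft ones. Its total of 2463946 counts was the highest of the stiff libraries, and the median count of its detected IDs was 103.0, against 37.0 to 43.0 in the other stiff libraries and 34.0 to 53.0 in the soft ones. In the coding table it also had the fewest genes detected, 13931 against 14835 to 15292 in the other stiff libraries and 14697 to 15258 in the soft ones. The 8 cardiomyocyte markers summed to between 23330 and 32820 CPM (TMM-scaled counts on a common library size) on stiff and between 21980 and 38330 CPM on soft, the 5 fibroblast markers to 5844 to 8954 and 6490 to 11240 CPM on the same substrates, and the 5 erythroid markers were at 0 in every library. In bulk RNA, fewer cells of a type and less RNA per cell cannot be told apart.

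The 40 IDs held 94 zeros among their 320 values. The zeros fell unevenly over the libraries. Stiff 3 alone had 28 of them, stiff 2 had 16, stiff 1 had 13 and stiff 4 had 6. Soft 1 had 11, soft 4 had 10, and soft 2 and soft 3 had 5 each. In stiff 3, then, 70.0% of the IDs had no read, while in soft 2 and soft 3 12.5% had none. A count of 0 in stiff 3 allows a level of up to 1.22 CPM (3 counts of its noncoding total, without TMM scaling). This limit ran from 1.20 to 1.51 CPM over the other 7 libraries. Such limits cover counting error only, since the labels name no molecular identifiers and reads from one amplified molecule are not independent.

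**Figure D1:**
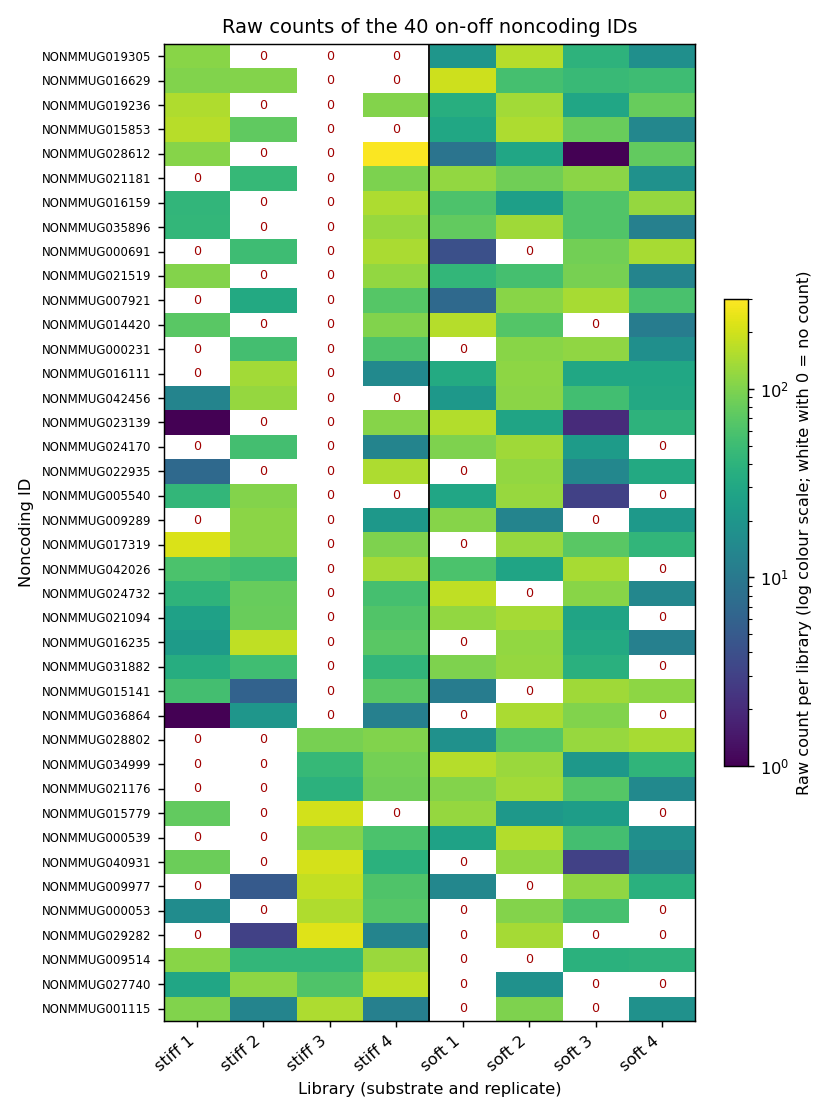
Raw counts of the 40 IDs (rows) in each library (columns, stiff to the left of the line and soft to the right), coloured on a log scale, with white cells marked 0 where no read was counted. The first 28 rows are the IDs at 0 in stiff 3, and the column of stiff 3 holds more zeros than any other column.

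By substrate, 63 of the 94 zeros (67.0%) lay in stiff libraries and 31 (33.0%) in soft ones, an average of 15.75 zeros per stiff library and 7.75 per soft library. Counted per ID, 25 had more zeros on stiff, 6 had more on soft and 9 had as many on each. Zeros lay in stiff libraries alone for 17 IDs, in soft libraries alone for 3 and on both substrates for 20. Stiff 3 held much of this difference. With it left uncounted, 35 of the remaining 66 zeros (53.0%) lay in the other 3 stiff libraries, where an even spread over 7 libraries would put 42.9%, and the averages were 11.7 zeros per stiff library and 7.75 per soft library. No ID was at 0 in all 4 libraries of a substrate. By the last digit of the library code, 24 zeros fell on digit 1, 21 on digit 2, 33 on digit 3 and 16 on digit 4, and 28 of the 33 of digit 3 were those of stiff 3.

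**Figure D2:**
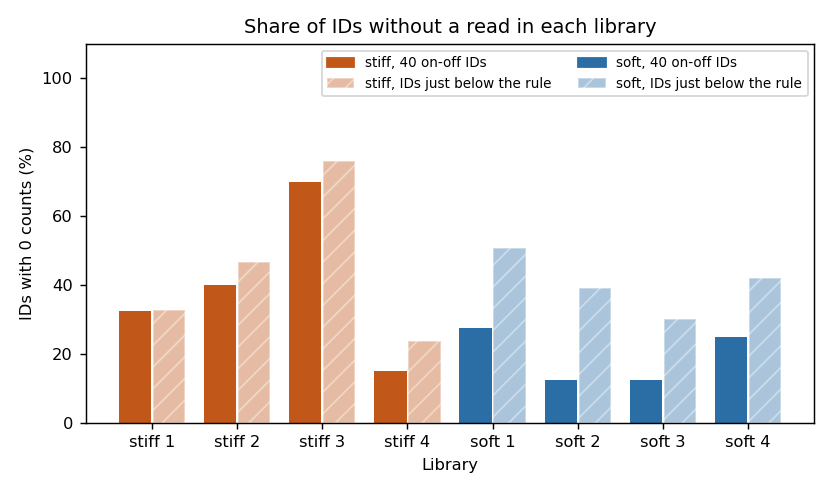
Percentage of IDs with 0 counts in each library, for the 40 on-off IDs (solid bars) and for the 2383 IDs just below the rule (hatched bars), with stiff libraries to the left. Stiff 3 is highest in both sets, at 70.0% and 76.2%.

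The zero libraries varied from ID to ID. The 40 IDs showed 24 combinations of zero libraries. The commonest was stiff 2 with stiff 3, shared by 6 IDs, followed by stiff 1 with stiff 2, shared by 4. There were 27 IDs with 2 zeros, 12 with 3 and 1 with 4. The 4 same-digit pairs shared from 0 to 2 zeros each, with a median of 2.0, and the 12 pairs of a stiff and a soft library with different digits shared from 0 to 6, also with a median of 2.0. Within a substrate, the 6 stiff pairs shared from 0 to 9 zeros and the 6 soft pairs from 0 to 4. No ID was at 0 in exactly the libraries of 1 digit or of 2 digits.

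**Figure D3:**
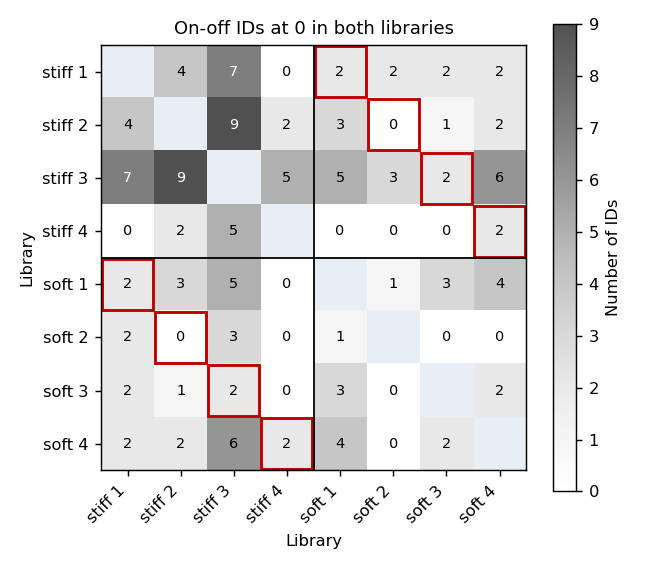
Number of on-off IDs at 0 in both libraries of each pair, with stiff libraries first on each axis and red frames around pairs with the same last digit. The framed pairs hold 0 to 2 IDs, and the pair of stiff 2 and stiff 3 holds 9.

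Between the zeros and the high values, few counts were very small. Of the 320 values, 94 were 0, 13 lay between 1 and 9, 78 between 10 and 49, 50 between 50 and 99 and 85 at 100 or more. The highest single value was 287. Counts of 100 or more were reached in 2 libraries by 35 IDs and in 3 libraries by 5, and in no more than 3 by any. The totals of the IDs over the 8 libraries ran from 274 to 664 counts with a median of 416.5, and together the 40 made up 0.0920% of all noncoding counts.

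Stiff 3 held 12 of the IDs, each with 39 counts or more, at a median of 125.5 counts. In the other stiff libraries the lowest value above 0 was 1 in stiff 1, 3 in stiff 2 and 12 in stiff 4, and the medians of the IDs detected were 54.0, 55.0 and 78.0 counts in that order. Soft 1, soft 2, soft 3 and soft 4 had lowest values of 4, 13, 1 and 11 counts and medians of 59.0, 113.0, 54.0 and 30.5. Soft 2 carried the IDs most often at a high level, with 23 of the 40 at 100 counts or more, against 4 in soft 4 and 7 to 13 in the stiff libraries. The part that the low number of IDs detected in stiff 3 has in these zeros was not tested.

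**Figure D4:**
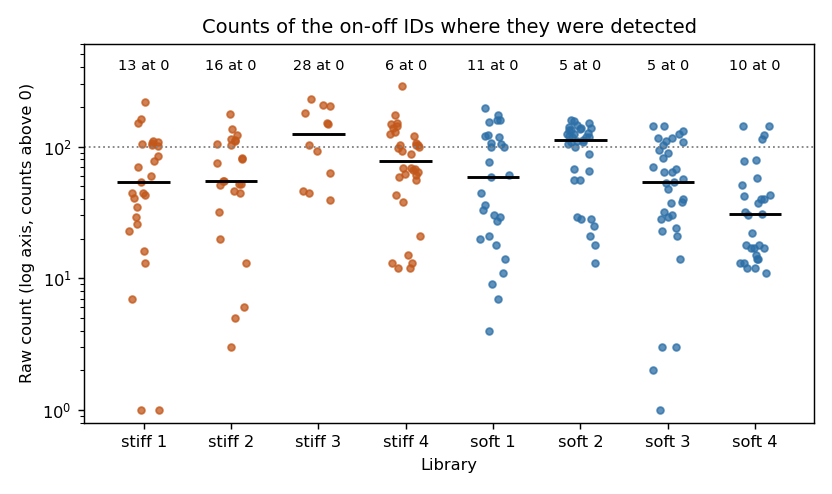
Raw counts above 0 of the 40 IDs in each library on a log axis, with a black line at the median, a dotted line at 100 counts and the number of IDs at 0 above each column. The 12 points of stiff 3 lie at 39 counts or more, while every other library has points below 20.

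The IDs with the highest totals show how the zeros combine. NONMMUG017319, the most abundant of the 40 with 664 counts, had 216, 112, 0 and 99 counts in stiff 1 to stiff 4 and 0, 124, 70 and 43 in soft 1 to soft 4. It was thus missing from 1 library of each substrate and near or above 100 counts in the other stiff libraries. NONMMUG016629 had 102, 105, 0 and 0 counts in stiff 1 to stiff 4 and 196, 56, 48 and 51 in soft 1 to soft 4, so its stiff libraries split into a pair above 100 and a pair at 0. NONMMUG019236 had 151, 0, 0 and 103 counts in the stiff libraries and 36, 135, 29 and 79 in the soft ones. NONMMUG015853 had 161, 75, 0 and 0 on stiff and 30, 150, 82 and 14 on soft. In all 3 of these IDs both zeros were in stiff libraries, and in NONMMUG019236 and NONMMUG015853 the stiff values enclosed the soft ones.

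The widest gap within a substrate was that of NONMMUG028612. It had 106, 0, 0 and 287 counts in stiff 1 to stiff 4, and 9, 29, 1 and 77 in soft 1 to soft 4. Relative to the noncoding totals, its level in stiff 4 was at least 97.2-fold higher than in stiff 3 when stiff 3 is set at 3 counts, a bound between 2 single libraries that covers counting error alone. NONMMUG028802 had 0, 0, 93 and 102 counts in the stiff libraries and 18, 67, 124 and 143 in the soft ones, with stiff 3 on the detected side. NONMMUG042026 had 60, 52, 0 and 139 on stiff and 59, 28, 142 and 0 on soft, with 1 zero and 1 value near 140 on each substrate.

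The 4 IDs named for the most zeros, with ties broken by total count, were missing from libraries of both substrates. NONMMUG029282 was the only one with 4 zeros: it had 0, 3, 229 and 13 counts in stiff 1 to stiff 4 and 0, 138, 0 and 0 in soft 1 to soft 4. Nearly all of its reads came from 1 stiff and 1 soft library, which have different digits. The other 3 were among the 12 IDs with 3 zeros, of which NONMMUG019305 had its zeros in stiff libraries alone and NONMMUG027740 in soft libraries alone. NONMMUG015779 had 77, 0, 202 and 0 counts on stiff and 122, 21, 24 and 0 on soft. NONMMUG000691 had 0, 51, 0 and 144 on stiff and 4, 0, 90 and 143 on soft. NONMMUG014420 had 70, 0, 0 and 102 on stiff and 158, 65, 0 and 11 on soft. NONMMUG015779, NONMMUG000691 and NONMMUG014420 each had, on both substrates, a library at 0 and a library above 100 counts.

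The threshold of 100 lies in a continuous range of values. Just inside it, NONMMUG031882 had 35, 52, 0 and 43 counts in the stiff libraries and 100, 121, 37 and 0 in the soft ones, and NONMMUG024170 had 0, 55, 0 and 13 on stiff and 100, 134, 23 and 0 on soft. Just outside it, NONMMUG006057 had 26, 99, 0 and 39 on stiff and 39, 138, 19 and 0 on soft, and NONMMUG031349 had 0, 0, 0 and 99 on stiff and 128, 40, 24 and 63 on soft. These 4 IDs differ by a single count in the value that decided their place.

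The comparison of stiff with soft asks whether substrate stiffness goes with the presence of these transcripts. None of the 40 passed the test, which does not show that none differed, given the scatter between replicates. In edgeR's quasi-likelihood fit to the whole noncoding table, with Benjamini-Hochberg adjustment over the 5747 IDs that passed the filter on low counts, 39 of the 40 were tested and 0 were called at an adjusted p under 0.05, against a background of 0.0% called over the table. At an unadjusted p under 0.05 there was 1 of the 39, against 0.992% (57 IDs) of the table. DESeq2 and limma-voom also called 0 IDs at an adjusted p under 0.05, and DESeq2 put 1 of the 37 for which it gave a p under 0.05 unadjusted, against 3.32%. The estimates of 10 IDs were higher on stiff and those of 29 lower, with a median log2 fold change of -0.56, against -0.04 over all IDs tested. Without stiff 3 the split was 14 higher and 25 lower, with a median of -0.32, and without soft 2 it was 17 higher and 22 lower, with a median of -0.24. With the last digit as a replicate block it was 11 higher and 28 lower, with a median of -1.39, against -0.08 over all IDs. The 40 were chosen for their zeros, and 63 of those 94 zeros lay in stiff libraries. The splits and medians are therefore a description, and nothing is read from their distance to the table. The replicates of these IDs scattered widely: edgeR's biological coefficient of variation had a median of 1.29 among the 39 (1.17 to 1.59) and of 0.929 over all IDs tested, and the rule chose them for wide scatter.

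NONMMUG027740 had the smallest p of the 40. It had 29, 114, 63 and 174 counts in stiff 1 to stiff 4, and 0, 18, 0 and 0 in soft 1 to soft 4. The raw counts of the substrates did not overlap. Its level was 39.7 ± 25.2 CPM on stiff and 2.13 ± 4.26 CPM on soft (SD, n = 4 each). The log2 fold change was 4.19 (SE 1.53), with an unadjusted edgeR p of 0.0121 and 0.99995 after adjustment. With the replicate block the log2 fold change was 6.67. Without soft 2 all 3 remaining soft libraries are at 0, and the fitted log2 fold change of 9.51 is then no bound.

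The other ID whose raw counts did not overlap between substrates was NONMMUG009514, also higher on stiff. It had 108, 44, 44 and 128 counts in the stiff libraries and 0, 0, 38 and 40 in the soft ones. Relative to the noncoding totals, stiff 3 lay below soft 3 and soft 4, so the substrates overlapped once depth was scaled. Its level was 34.4 ± 18.1 CPM on stiff and 9.04 ± 10.4 CPM on soft (SD, n = 4 each). The log2 fold change was 1.92 (SE 1.34), or 3.71 with the replicate block, and the edgeR adjusted p 0.99995. By raw counts these were 2 of the 40, and 1.98% of all IDs tested had raw counts that did not overlap between substrates.

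The remaining IDs with the smallest p-values had lower means on stiff, and in each the substrates overlapped. NONMMUG036864 had 1, 20, 0 and 12 counts in the stiff libraries and 0, 145, 102 and 0 in the soft ones, with a log2 fold change of -3.00 (SE 1.82). NONMMUG007921 had 0, 32, 0 and 67 on stiff and 7, 109, 143 and 58 on soft, with a log2 fold change of -1.85 (SE 1.36). Its highest stiff library lay above 2 of the 4 soft ones. NONMMUG021176 had 0, 0, 39 and 87 on stiff and 105, 137, 67 and 15 on soft (log2 fold change -1.61, SE 1.30). NONMMUG034999 had 0, 0, 46 and 92 on stiff and 160, 126, 21 and 42 on soft (log2 fold change -1.57, SE 1.28). The edgeR adjusted p was 0.99995 for each of these 4. With the replicate block the log2 fold changes were -1.10 for NONMMUG036864, -3.14 for NONMMUG007921, -3.61 for NONMMUG021176 and -3.16 for NONMMUG034999. Without stiff 4 they were -2.90 for NONMMUG007921, -2.89 for NONMMUG021176 and -2.74 for NONMMUG034999.

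The number at an unadjusted p under 0.05 depended on the tool. The 39 were chosen on these same counts for zeros beside high values, which lie far apart on a log scale, so the counts that follow are a description and nothing is read from their excess over the table. limma-voom put 11 of the 39 there, 9 of them lower on stiff, against 3.08% of the table and 2.12% lower on stiff, and none passed its adjustment. Without stiff 3 there were 7 of 39, 4 of them lower on stiff, against 3.51% of the table. With the last digit as a replicate block there was 1, against 2.09%. The edgeR fit with the block had 2 of the 39, against 1.58%, and 0 IDs called.

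The 2383 IDs just below the rule, which had 2 or more zeros and 20 or more counts in at least 2 libraries but did not meet the threshold of 100, were used to compare zeros between substrates in other IDs. They too were chosen for having zeros, though without regard to substrate, and are not independent evidence of how zeros fall by library. Their zeros numbered 779, 1111, 1815 and 569 in stiff 1 to stiff 4, and 1211, 933, 720 and 1001 in soft 1 to soft 4. Stiff 3 was the highest of the 8 and stiff 4 the lowest. The mean was 1069 ± 545 zeros per library on stiff and 966 ± 202 on soft (SD, n = 4 each; two-sided exact permutation p = 0.8). Without stiff 3 the difference, which is 102 with all libraries, turned to -112 (exact permutation p = 0.514), so that its sign rests on that library. Over the whole noncoding table, 6973 ± 1519 IDs had at least 1 count per stiff library and 7239 ± 516 per soft library (SD, n = 4 each; exact permutation p = 0.829), and that difference turned as well, from -266 to 430, without stiff 3 (exact permutation p = 0.4). With 4 libraries against 4 the smallest p this test can give is 0.0286.

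Whether an ID that switched on one substrate also had a zero on the other was read in libraries where no zero was required. Among IDs with a mean of 34.25 to 83.0 counts in the soft libraries, which is the range of the means of the 40 over all libraries, 120 had a zero and a value of 100 or more within the soft libraries alone. In the stiff libraries 67.5% of these 120 had at least 1 zero, against 34.3% of the 1264 IDs of that range without a soft zero. Leaving stiff 3 out, the shares were 37.5% and 12.5%. Chosen on stiff and looked at on soft, the shares were 40.4% of 317 IDs and 19.2% of 920. IDs chosen on one substrate thus had a zero on the other more often than IDs without a zero in the choosing libraries. The range was applied to means in the choosing libraries alone, but its bounds came from the 40, which were chosen on all 8 libraries. The IDs without a zero did not need a value of 100 or more, so the compared classes differ in more than a zero. The medians of those means were 47.5 and 53.9 counts in the first case and 50.2 and 56.1 in the second. Levels in the libraries looked at were not compared, so a lower level there was not allowed for. IDs are not independent replicates, and no p is given.

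The rule was also applied to the coding table. Under the same rule 38 of 29844 coding genes were on and off. Among features with 100 or more counts in at least 2 libraries the share was 1.38% of 2908 noncoding IDs and 0.306% of 12401 coding genes, but coding genes have far more counts. Among features with a mean of 34.25 to 83.0 counts it was 2.74% of 1458 noncoding IDs and 2.87% of 1044 coding genes. That range was set by the means of the 40, so it holds all 40 of them but 30 of the 38 coding genes. The shares in it are therefore a description, and whether switching is particular to noncoding IDs was not tested. At that level stiff 3 was at 0 for 26.3% of the noncoding IDs, against 1.44% to 6.93% in the other stiff libraries and 3.15% to 7.20% in the soft ones. In the coding table stiff 3 was at 0 for 17.7%, against 3.06% to 6.61% and 2.68% to 6.23% on the same substrates. The excess of zeros in stiff 3 was thus present in both tables.

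**Figure D5:**
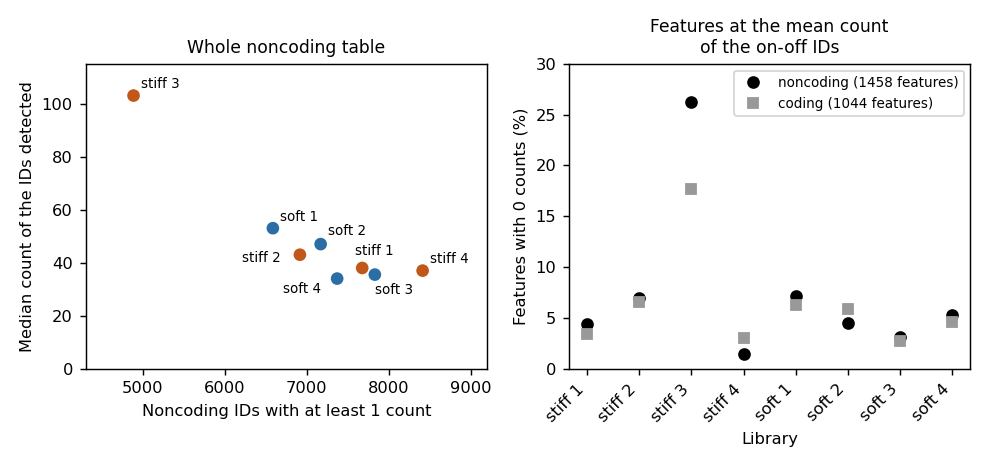
Left, noncoding IDs with at least 1 count against the median count of those IDs for each library (stiff in orange, soft in blue); right, percentage of features with 0 counts in each library among noncoding IDs (circles) and coding genes (squares) with a mean of 34.25 to 83.0 counts. Stiff 3 has the fewest IDs, the highest median and the highest share of zeros in both tables.

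The zeros of the 38 coding genes numbered 52 in stiff libraries and 48 in soft ones, with 14 in stiff 3 and the most, 18, in soft 4. The 40 noncoding IDs and the 38 coding genes are given by digit, and no difference between them was tested. Such counts also depend on how often each library alone was at 0 or high, which was not allowed for. Soft 2 alone, for instance, was at 100 counts or more in 23 of the 40 noncoding IDs. Both libraries of a digit were at 100 counts or more in 1, 5, 1 and 3 of the noncoding IDs for digits 1 to 4, and in 3, 2, 11 and 5 of the coding genes. Both were at 0 in 2, 0, 2 and 2 of the noncoding IDs for digits 1 to 4, and in 1, 8, 3 and 10 of the coding genes. Digits 2 and 4 for zeros and digit 3 for high counts were thus more frequent among the coding genes, while digit 2 for high counts was more frequent among the noncoding IDs. An example, chosen after its values were seen, is Epcam, which encodes an adhesion molecule of epithelial cells: it had 0, 0, 338 and 0 counts in stiff 1 to stiff 4 and 1, 25, 557 and 0 in soft 1 to soft 4. Its reads came almost wholly from the libraries with the digit 3, and the 1 noncoding ID with both of these libraries at 100 counts or more was NONMMUG009977, with 0, 5, 179 and 62 counts on stiff and 14, 0, 117 and 37 on soft.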

How the data were processed

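RNA sequencing gave 2 tables of raw counts, one of coding and one of noncoding genes, for 4 stiff and 4 soft libraries. The authors deposited whole-number counts per gene, which were used as deposited. Per the submitters' processing notes the build was GRCm38 and the tools were TopHat2 2.0.14 with Bowtie2, TopHat, HTSeq 0.6.1, Cufflinks, edgeR, DESeq2 and FastQC 0.11.2, with no role given for any. How strand and duplicate reads were handled, and which release of the noncoding annotation served, is not stated in those sources. Overlapping noncoding IDs may share reads. These choices bear on whether an ID is at 0.

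The members, the marker lists and the rule for named IDs were chosen with earlier results of these data known. The rule was applied to raw counts without scaling for depth. Noncoding counts were fitted in R 4.3.3 with edgeR 4.0.16 (filterByExpr with a minimum count of 10 and a minimum total of 15, TMM scaling, robust quasi-likelihood F test, substrate as sole term) and, as alternatives, limma 3.58.1 and DESeq2 1.42.0. IDs were called at an adjusted p under 0.05. The SE given with an edgeR log2 fold change was derived, as its absolute value divided by the square root of the F statistic. The fitting was tested on simulated counts, and most of the altered IDs were missed. When the simulated difference was 4-fold, the fit found 12 of 66 such IDs. It found 0 of 67 when the difference was 2-fold, and again 0 of 67 when it was 1.5-fold. The altered IDs were drawn from all IDs tested, whose median biological coefficient of variation was 0.929, against 1.295 among the 39. The absence of calls therefore says little about differences of 4-fold or less. Differences above 4-fold were not simulated, so how many of those would be found is not known. CPM are TMM-scaled within each table, except the limits on a count of 0, which use the noncoding total alone. Coding IDs were matched to symbols by Ensembl ID. Library measures were compared by two-sided exact permutation with Python 3.11.15 and scipy 1.17.1. Named were the 8 IDs with the highest totals, the 6 with the smallest edgeR p, the 4 with the most zeros and 4 beside the threshold; 0 IDs met the parts of the rule on a whole substrate at 0, on digit pairs at 0 and on neighbouring ID numbers. NONMMUG009977 and Epcam were named after their values were seen.

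No pairs of libraries agreed within sampling noise (chi-square per degree of freedom 22.0 to 56.1 over 28 pairs). Replicate numbers equal the last digit of the library code, which the labels do not call a pairing. Deviations from the group means of libraries with the same number correlated at 0.0096, 0.0176, -0.0137 and 0.0793 for digits 1 to 4 in the noncoding table and at 0.104, 0.181, 0.128 and 0.305 in the coding table. The noncoding libraries were compared unpaired, and the fits with the number as a replicate block are given beside the results they move.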

Additional observations from a re-analysis of the deposited data

Results flagged for a closer look

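Among 54 groups of 4 libraries, a library far from the other 3 was found in 5. Chance gives about 1 in 20 in groups not chosen for their spread, and that rate does not apply to the counts of the on-off IDs, which were chosen for holding zeros beside high values. Stiff 3 had a median of 103.0 counts over the noncoding IDs it detected, against 37.0 to 43.0 in the other stiff libraries. NONMMUG029282 was far higher in stiff 3, at 229 counts, than in the other stiff libraries and far higher in soft 2, at 138 counts, than in the other soft ones, which were all at 0. Soft 2 was also the library that stood apart for NONMMUG027740, with 18 counts against 0 in the other soft libraries. For NONMMUG016629 it was soft 1, which had 196 counts where soft 2 to soft 4 had 48 to 56.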

How the results depend on the processing

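How many IDs were on and off depended on the thresholds and on the depth. There were 516 at 50 or more counts, 0 at 200 or more, 227 with at least 1 zero, 13 with at least 3 zeros and 18 after thinning every library to the smallest total, and 15 to 34 with each library left out in turn, against 40. The share of their zeros in stiff libraries was 55.2% at 50 or more counts, 76.5% with at least 1 zero and 55.0% with at least 3 zeros, against 67.0%, where an even spread over 8 libraries gives 50%. With a library left out and the rule applied to the other 7 it was 48.4% (without stiff 3) to 78.9% (without soft 1), where an even spread gives 42.9% without a stiff library and 57.1% without a soft one. With 0 IDs at 200 or more counts there is no share to give. For the noncoding table, 0 IDs were called under each of the 17 alternatives. At an unadjusted p under 0.05 there were 57 with edgeR, 567 without a filter, 393 with 10 counts in 2 libraries, 391 with DESeq2, 177 with limma-voom, 91 with the replicate block and 89 to 159 with a library left out. The difference in zeros of the IDs just below the rule ran from -112 to 225.5 with a library left out, and that in IDs detected from -746 to 430. With the number as a replicate block the exact permutation p was 0.875 for each of these 2, where 4 pairs allow no p under 0.125. The 6 fold changes given with an SE kept their sign in all 17 alternatives, but each moved by over 1.5 times in some, as given in the report for the replicate block and for stiff 4 and soft 2. With limma-voom they were 5.90 for NONMMUG027740 and 3.91 for NONMMUG009514. For the IDs lower on stiff they were -1.17 for NONMMUG036864, -3.47 for NONMMUG007921, -3.54 for NONMMUG021176 and -3.57 for NONMMUG034999. The cause of these shifts was not tested. Depth limits a single value of 0 to at most 1.51 CPM of the noncoding total, without TMM scaling and for counting error alone. The spread between replicates limited the comparison of substrates.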
